A study of Mus musculus with 6 samples.

Results

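The 44 genes described here are a fixed list of cell cycle and mitosis genes, read in the livers of newborn mice labelled as Igf2 knockouts and of wild-type mice of the same age. Probes were taken where their current symbol, or else their platform symbol or a RefSeq synonym, named 1 of the 44 genes, and 42 of the genes had at least 1 probe on the array. For 38 of them a probe was detected on at least 3 of the 6 arrays, against 11346 genes tested in all and 19057 genes named on the array. The arrays were Illumina expression BeadChips hybridised with biotin-labelled cRNA made from total liver RNA. There were 3 arrays of Igf2 knockout livers (KO; labelled Igf2 KO) and 3 arrays of wild-type livers (WT), all from newborns of a mixed 129/ c57Bl/6 background. The labels do not give the deleted part of Igf2, the number of pups behind an array or their litters. The p-values therefore rest on the spread of these arrays, and part of that spread may be technical.

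Igf2 encodes a growth factor of the fetus that signals through receptors of the insulin family and is known to promote the growth and division of cells. The cell cycle is driven by cyclins and the kinases they activate. D-type cyclins with Cdk4 and Cdk6 relieve the brake that the retinoblastoma protein puts on E2F factors, E2F factors turn on genes for DNA replication, and B-Myb, Foxm1 and the mitotic kinases then carry the cell through mitosis. At birth the mouse liver holds both hepatocytes and blood-forming cells, and both can divide. Whole-liver RNA does not tell fewer cycling cells from less RNA per cycling cell.

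Igf2 itself was lower in the KO livers. Its signal was 10293 ± 1373 in KO and 19218 ± 575 in WT (SD, n = 3 each, deposited intensity), a change of -0.91 ± 0.11 on the log2 scale (SE; limma adjusted p = 0.0022). Whether its probe lies in the deleted part is not known here. Hepatocyte markers were high on all arrays, where the summed level of 11 hepatocyte markers was 148374 to 151762 in KO and 149401 to 150446 in WT. Bright markers share values between the normalized arrays, such as Apoa1 with a signal of 23112.5 on KO arrays 1 and 2 and WT array 1. Near-equal sums therefore do not measure equal hepatocyte content. KO arrays 1 and 2 stood apart by lung transcripts: Sftpc, a surfactant gene, had a log2 intensity of 11.34, 12.56 and 6.36 in KO against 4.82, 4.74 and 4.54 in WT. KO array 3 was also above WT for Sftpc, but below WT for Sftpd, another lung marker (6.29 against 7.25 to 7.57). The fits of the cell cycle genes below were also computed without KO arrays 1 and 2, which leaves KO array 3 with its Sftpc signal. Role summaries, single-probe tests and marker lists below include KO arrays 1 and 2.

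Levels of cell cycle genes differed little between KO and WT livers. Of the 38 genes tested, 1 was higher in KO (Ube2c) and 1 was lower (Cdk4) at a limma adjusted p of 0.05, which is 5.26% of them. Among all 11346 genes, 16.7% were called: 8.23% of all genes were higher and 8.49% lower in KO. The median log2 fold change of the 38 genes was 0.031, against 0.022 over all genes, and the median size of change was 0.15 against 0.19. No gene of the 38 reached a 2-fold change, and the 95% interval of every one of the 38 lay within 2-fold in either direction. For 31 of the 38 the interval lay within 1.5-fold. Over all genes tested, 3.31% changed at least 2-fold, and 67.8% had an interval within 1.5-fold. At an unadjusted p under 0.05 there were 8 of the 38 genes (21.1%), beside 33.6% of all genes. Without KO arrays 1 and 2, 0 of the 38 genes were called in limma and the median was 0.077, where 1.84% of all genes were called, and 3 of the 38 had an unadjusted p under 0.05. That fit takes the spread of the WT arrays for the lone KO array too.

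**Figure D1:**
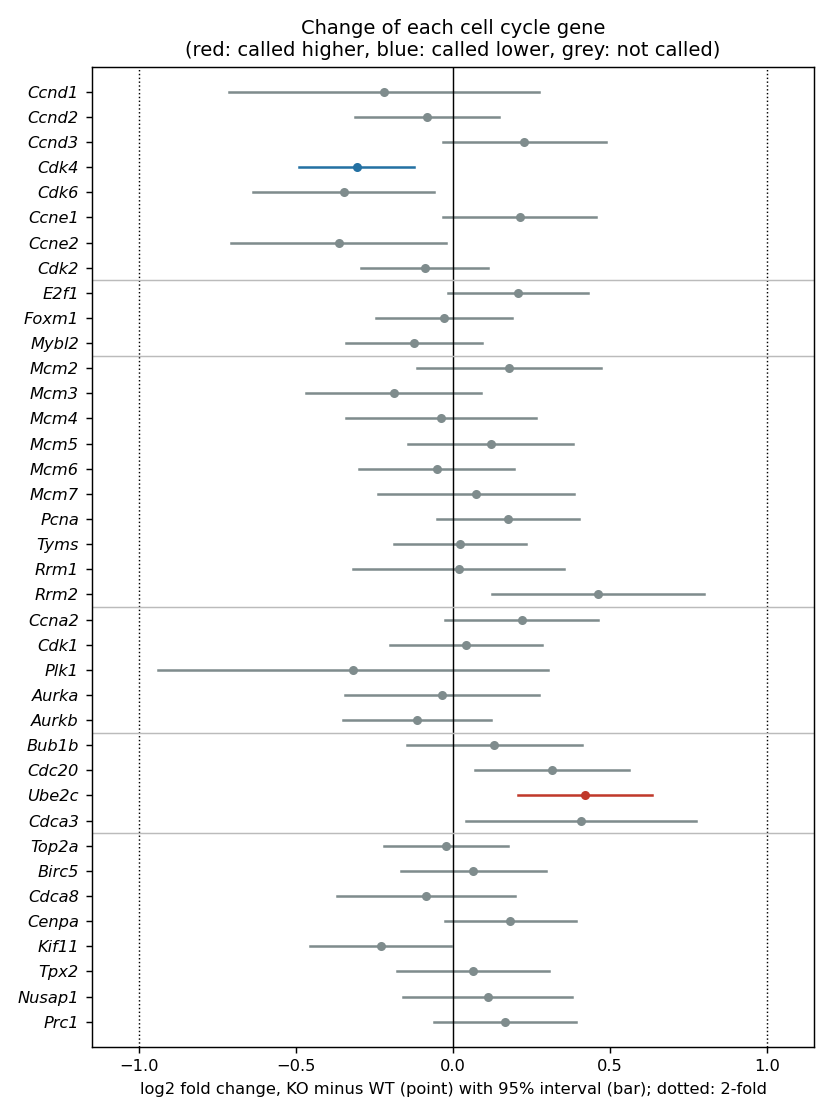
Log2 fold change of each of the 38 tested cell cycle genes, KO minus WT, with its 95% interval from limma (3 arrays a group), ordered by role from G1 at the top to the spindle at the bottom. Points lie between -0.36 and 0.46, no bar reaches the dotted lines at 2-fold, with Ube2c (red) and Cdk4 (blue) called in limma and the other 36 not.

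**Figure D2:**
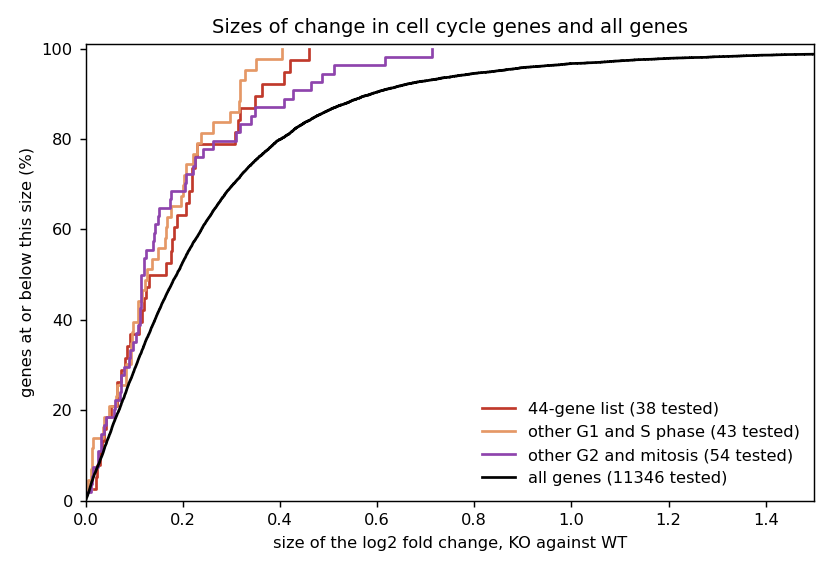
Cumulative share of genes by the size of their log2 fold change, for the 38 tested genes of the list, 2 further cell cycle lists and all 11346 genes. The median size was 0.15 for the 38 genes and 0.19 for all genes, and the curves of the 3 cell cycle lists end by 0.71, within an axis that stops at 1.5.

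The promoters of the genes with the smallest p-values are shown first, with Cdk1 as a gene that holds 3 of the 4 motifs looked for. Each window runs 5′ to 3′ from 250 bases before to 50 bases after a RefSeq start (GRCm38.p6), and capitals mark matches on either strand. The motifs were CCAAT (bound by NF-Y), TTTGAA (the CHR element known from mitotic genes), CACGTG (an E-box) and the E2F forms TTTCCCGC, TTTGGCGC, TTTCGCGC and TTTGCCGC.
Ube2c, chr2:164769679-164769978, + strand: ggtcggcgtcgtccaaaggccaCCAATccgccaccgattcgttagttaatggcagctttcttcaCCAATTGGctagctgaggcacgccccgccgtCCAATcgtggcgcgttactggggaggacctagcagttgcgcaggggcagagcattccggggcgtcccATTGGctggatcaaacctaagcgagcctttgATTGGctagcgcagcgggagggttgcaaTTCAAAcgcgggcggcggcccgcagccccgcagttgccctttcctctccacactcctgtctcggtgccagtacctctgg
Cdk4, chr10:127063285-127063584, + strand: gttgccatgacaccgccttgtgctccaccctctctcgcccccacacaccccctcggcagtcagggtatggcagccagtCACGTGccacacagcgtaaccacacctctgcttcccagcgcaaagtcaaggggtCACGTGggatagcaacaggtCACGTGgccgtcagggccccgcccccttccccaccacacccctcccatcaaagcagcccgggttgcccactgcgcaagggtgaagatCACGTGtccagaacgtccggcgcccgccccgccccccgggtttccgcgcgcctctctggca
Rrm2, chr12:24708004-24708303, + strand: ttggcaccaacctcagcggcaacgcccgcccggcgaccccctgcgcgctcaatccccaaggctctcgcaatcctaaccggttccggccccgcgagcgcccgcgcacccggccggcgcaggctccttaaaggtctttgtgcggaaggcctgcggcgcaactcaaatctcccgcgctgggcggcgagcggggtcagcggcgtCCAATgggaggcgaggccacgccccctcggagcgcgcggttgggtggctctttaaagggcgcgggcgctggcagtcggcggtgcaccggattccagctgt
Cdc20, chr4:118437294-118437593, - strand: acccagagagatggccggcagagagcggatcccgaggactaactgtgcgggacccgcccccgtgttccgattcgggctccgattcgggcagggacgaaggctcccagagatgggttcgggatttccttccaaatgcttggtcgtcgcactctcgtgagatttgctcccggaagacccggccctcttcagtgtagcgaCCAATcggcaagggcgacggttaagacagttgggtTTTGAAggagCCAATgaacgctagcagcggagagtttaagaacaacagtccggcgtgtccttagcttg
Cdk1, chr10:69352863-69353162, - strand: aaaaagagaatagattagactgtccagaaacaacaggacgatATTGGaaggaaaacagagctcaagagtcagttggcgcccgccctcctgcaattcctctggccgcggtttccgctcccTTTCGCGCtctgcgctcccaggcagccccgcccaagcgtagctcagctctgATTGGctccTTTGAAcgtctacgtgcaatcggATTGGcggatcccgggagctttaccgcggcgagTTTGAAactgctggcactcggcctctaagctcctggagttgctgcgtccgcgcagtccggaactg

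The promoter of Ube2c held 6 matches to CCAAT, a pair of which overlap on opposite strands, and 1 to TTTGAA. That of Cdk4 held 4 matches to CACGTG and none of the other motifs, that of Rrm2 held 1 CCAAT, and that of Cdc20 held 2 CCAAT and 1 TTTGAA. In the Cdk1 promoter there were 1 E2F form, 2 TTTGAA and 3 CCAAT. Of the 44 genes, 35 had 38 windows in the table. CCAAT was in 29 of these windows (76.3%), against 37.4% of all 32851 windows, and TTTGAA in 16 (42.1%), against 17.9%. All 16 windows with TTTGAA also had CCAAT, where 6.95% of all windows held both. An E2F form was in 6 windows (15.8%), against 2.26% of all, and CACGTG in 3 (7.89%), against 7.15%. A match is a string of letters and not a measured binding site. The median log2 fold change was 0.13 over 13 tested genes with TTTGAA and 0.065 over 17 without TTTGAA. For CCAAT it was 0.096 over 22 genes with the motif and 0.043 over 8 without it. For the E2F forms it was -0.0055 over 6 genes with one and 0.12 over 24 without. For CACGTG it was -0.31 over 3 genes with the motif and 0.11 over 27 without it. These 3 were Cdk4 (-0.31), Cdk6 (-0.35) and Tyms (0.021), so that the median is the value of Cdk4 alone.

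Among the genes of G1, Cdk4, a kinase that partners D-type cyclins, was lower in KO. Its log2 intensity was 10.38, 10.31 and 10.33 in KO and 10.64, 10.64 and 10.66 in WT, and all KO arrays lay below all WT arrays. The deposited signal was 1280.0 ± 32.6 in KO and 1587 ± 12.2 in WT (SD, n = 3 each). The change was -0.31 ± 0.079 on the log2 scale (SE; 95% interval -0.49 to -0.12; limma adjusted p = 0.0366), so that 0.81 of the WT level was left. A dimmer detected probe of Cdk4 had 131.3, 129.3 and 145.8 in KO and 142.3, 130.1 and 135.6 in WT, with groups that overlap and a change of -0.0060 (adjusted p = 0.972 over all probes). Without any 1 of the 6 arrays the change of the brighter probe stayed at -0.33 to -0.29 but did not pass (adjusted p 0.0591 to 0.102). The 2 probes of the gene do not show the same change.

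By role, the 8 genes of G1 had a median log2 fold change of -0.16. Their median deviation was -0.13 to -0.0011 on KO arrays and 0.043 to 0.14 on WT arrays, which do not overlap. Of the 8, 1 was called in limma (12.5%, beside 16.7% of all genes) and 3 had an unadjusted p under 0.05 (37.5%, beside 33.6%). Values of 2 of the 8 did not overlap between the groups (25%, beside 39.1% of all genes). The other kinase of the D-type cyclins, Cdk6, had 5.72, 5.57 and 5.30 in KO and 5.85, 5.81 and 5.98 in WT, near the dim end of the detected probes. Its groups did not overlap, and its change of -0.35 ± 0.12 did not pass (adjusted p = 0.0933). The 3 D-type cyclins themselves did not pass. Ccnd3 had 12.04, 12.03 and 12.18 in KO and 12.06, 11.74 and 11.77 in WT, with WT array 1 inside the KO range (0.23 ± 0.11, adjusted p = 0.200). Ccnd1, a cyclin induced by growth factors, had 9.26, 9.33 and 9.18 in KO and 9.46, 9.02 and 9.96 in WT. The WT arrays of Ccnd1 thus spread over a range that encloses all KO arrays, and its interval of -0.71 to 0.27 was the second widest of the 38. Ccnd2 differed by -0.082 ± 0.098. Of the E-type cyclins, which open S phase with Cdk2, Ccne1 differed by 0.21 ± 0.10 and Ccne2 by -0.36 ± 0.15 (adjusted p = 0.127), and the brightest probe of Cdk2 by -0.091 ± 0.086.

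Of the 3 transcription factors of the cycle, 0 were called by limma and 0 had an unadjusted p under 0.05. Over all genes the shares were 16.7% and 33.6%, so with 3 genes these counts say little. E2f1 had 9.55, 9.39 and 9.57 in KO and 9.33, 9.19 and 9.36 in WT, so that the groups did not overlap. Its change of 0.21 ± 0.096 did not pass (adjusted p = 0.177). Mybl2, which encodes B-Myb, had 9.56, 9.46 and 9.58 in KO and 9.71, 9.54 and 9.73 in WT (-0.12 ± 0.093, adjusted p = 0.386). Foxm1, a factor of G2 and mitosis, differed by -0.029 ± 0.093.

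Of 10 tested genes of DNA replication and of nucleotide supply, 0 were called in limma, beside 16.7% of all genes. At an unadjusted p under 0.05 there was 1 (10%, beside 33.6% of all genes). The median log2 fold change over their brightest probes was 0.047, while single dimmer probes of Rrm1, Rrm2 and Mcm6 were called, as given below. The 6 subunits of the MCM helicase, which opens DNA at origins, had changes from -0.19 (Mcm3) to 0.18 (Mcm2). Mcm4 had 11.79, 11.85 and 11.75 in KO and 11.89, 11.57 and 12.05 in WT. Here the KO arrays lay between the WT arrays, and the 95% interval was -0.34 to 0.26. Pcna, the sliding clamp of the polymerases, differed by 0.18 ± 0.097 (adjusted p = 0.247), with KO arrays all above WT arrays, and Tyms, thymidylate synthase, by 0.021 ± 0.090. Rrm2, the small subunit of ribonucleotide reductase, had 9.37, 9.47 and 9.46 in KO and 9.24, 8.67 and 9.02 in WT. Its groups did not overlap and its change of 0.46 ± 0.14 was the largest of the 38, but it did not pass (adjusted p = 0.0672). The large subunit Rrm1 had 9.89, 10.14 and 10.14 in KO and 10.10, 9.76 and 10.25 in WT, with a change of 0.018 ± 0.14.

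WT array 2 was the lowest of the 6 arrays for 9 of these 10 genes, and for 20 of the 38 genes (52.6%), against 20.8% of all genes. The median deviation of the 10 replication genes from their own means was 0.0058, 0.043 and 0.088 on KO arrays 1, 2 and 3 and 0.055, -0.26 and 0.094 on WT arrays 1, 2 and 3. The WT arrays thus differed more from each other than the KO arrays did, and WT array 2 lay apart. For 30 of the 38 genes (78.9%) the SD was larger in WT than in KO, against 58.8% of all genes. The median SD of the 38 genes was 0.079 in KO and 0.15 in WT. Without WT array 2 the median log2 fold change of the 38 genes was 0.00034, with 0 called in limma and 6 at an unadjusted p under 0.05. In that fit 12.0% of all genes were called.

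**Figure D3:**
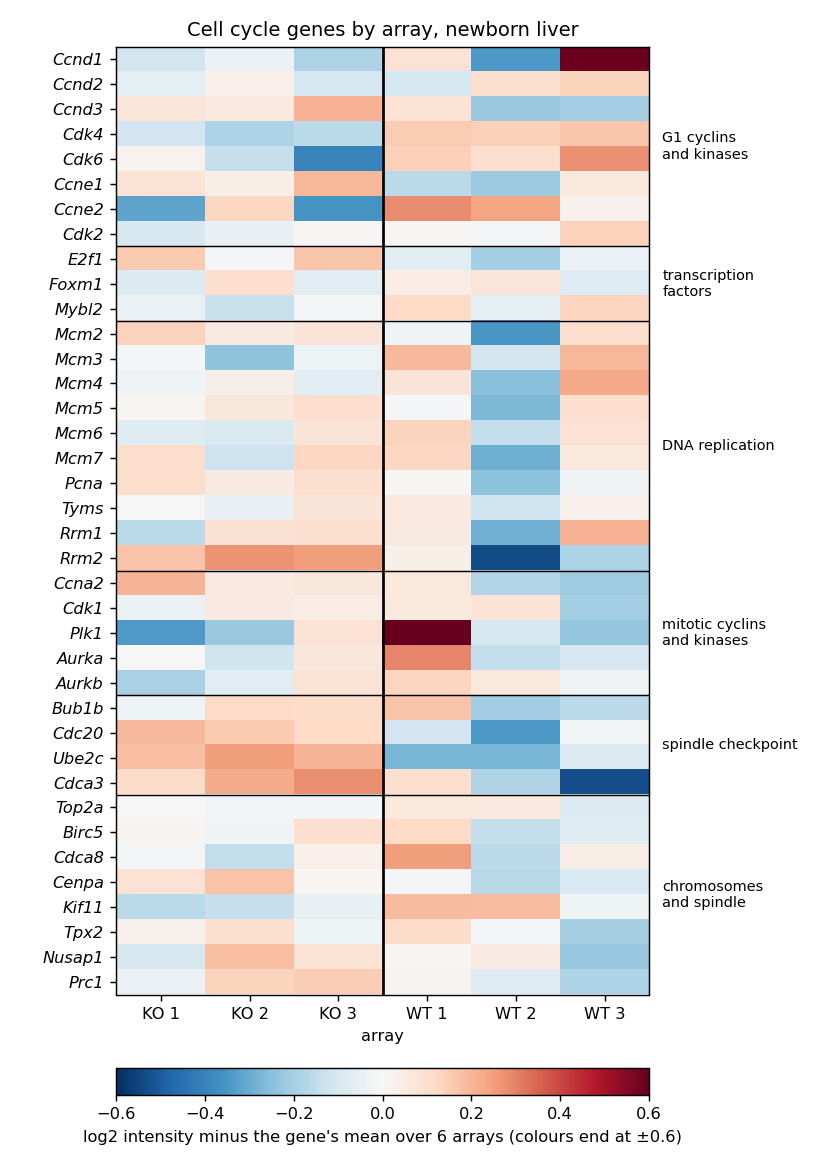
Log2 intensity of the 38 tested cell cycle genes on each array, as the difference from the gene's mean over the 6 arrays, with KO arrays left of the line and WT arrays right of it. The DNA replication genes are lowest on WT array 2 for 9 of 10 genes, while the 4 genes of the spindle checkpoint and mitotic exit have median deviations of 0.15 to 0.19 on KO arrays and of -0.24 to -0.0068 on WT arrays.

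Of the mitotic cyclins and kinases, 0 of 5 tested genes were called in limma and 0 had an unadjusted p under 0.05. Over all genes the shares were 16.7% and 33.6%, so with 5 genes these counts say little. Cdk1, the kinase that starts mitosis, had 10.63, 10.71 and 10.71 in KO and 10.72, 10.74 and 10.46 in WT. The groups overlap, and the interval of its change was -0.20 to 0.28. Its partner Ccna2 had 5.90, 5.76 and 5.77 in KO and 5.76, 5.52 and 5.49 in WT, a difference of 0.22 ± 0.10 (adjusted p = 0.188). Plk1, a polo-like kinase, had 8.38, 8.49 and 8.80 in KO and 9.53, 8.61 and 8.48 in WT. WT array 1 was high for this gene, and the interval of -0.94 to 0.30 was the widest of the 38. Aurka and Aurkb, the Aurora kinases of the spindle poles and of the centromeres, differed by -0.035 ± 0.13 and -0.12 ± 0.10.

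Ube2c, the ubiquitin-conjugating enzyme that works with the anaphase-promoting complex at mitotic exit, was higher in KO. Its log2 intensity was 6.08, 6.15 and 6.11 in KO and 5.63, 5.63 and 5.82 in WT, and all KO arrays lay above all WT arrays. The change was 0.42 ± 0.091 on the log2 scale (SE; 95% interval 0.21 to 0.63; limma adjusted p = 0.0209). The gene was dim but detected on all arrays, with a deposited signal of 53.5 ± 1.73 in KO and 36.1 ± 4.07 in WT (SD, n = 3 each). Ube2c had no second probe. Without any 1 of the KO arrays, or without WT array 1 or WT array 2, the change stayed at 0.39 to 0.44 but did not pass (adjusted p 0.0571 to 0.0731). Without KO arrays 1 and 2 it was 0.41 (adjusted p = 0.242), and that of Cdk4 was -0.31 (adjusted p = 0.296).

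By their brightest probes, the 3 other tested genes of the spindle checkpoint and mitotic exit were also at higher means in KO, but did not pass. Cdc20, an activator of the anaphase-promoting complex, had 10.25, 10.21 and 10.17 in KO and 9.94, 9.71 and 10.04 in WT (0.31 ± 0.11, adjusted p = 0.0796). Cdca3, which promotes entry into mitosis, had 10.84, 10.95 and 11.01 in KO and 10.83, 10.55 and 10.20 in WT (0.41 ± 0.16, adjusted p = 0.114). In both genes the KO arrays lay above the WT arrays, for Cdca3 with KO array 1 and WT array 1 nearly equal. Bub1b, a checkpoint kinase, differed by 0.13 ± 0.12 with groups that overlap. The median log2 fold change of the 4 genes, over their brightest probes, was 0.36. The other 3 probes of Cdc20 differed by 0.073, -0.038 and -0.074, so the size seen with its brightest probe was not seen with these. A second probe of Bub1b differed by -0.14, opposite in sign, and a second probe of Cdca3 by 0.33 with groups that overlap.

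Among 8 tested genes of chromosomes, centromeres and the spindle, 0 were called in limma, beside 16.7% of all genes. At an unadjusted p under 0.05 there was 1 (12.5%, beside 33.6% of all genes), and changes ran from -0.23 to 0.18. Cenpa, the histone variant of centromeres, had 12.22, 12.30 and 12.14 in KO and 12.11, 11.96 and 12.04 in WT, with groups that did not overlap (0.18 ± 0.090, adjusted p = 0.200). Kif11, a kinesin that separates the spindle poles, had 7.76, 7.78 and 7.88 in KO and 8.11, 8.10 and 7.89 in WT (-0.23 ± 0.096, adjusted p = 0.140). Top2a, the topoisomerase that untangles chromosomes, was the steadiest across KO arrays, with 10.71, 10.69 and 10.69 in KO and 10.77, 10.77 and 10.63 in WT. Birc5 and Cdca8, subunits of the chromosomal passenger complex, differed by 0.065 ± 0.099 and -0.086 ± 0.12. Tpx2, Nusap1 and Prc1, which bind spindle microtubules, differed by 0.065, 0.11 and 0.16.

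Values of the 3 KO and 3 WT arrays did not overlap for 10 of the 38 genes (26.3%), 7 with KO above WT and 3 below, beside 39.1% of all genes. The other 6 of the 44 genes were not tested. Ccnb1 and Mki67 had no probe under their names in the annotation used here. The probes of Ccnb2, Bub1, Cenpe and Kif20a were not above background on any array, with deposited signals from -9.1 to 5.1. Whether these genes are low, or their probes do not report them, cannot be told here.

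The 38 tested genes had 79 detected probes, and 21 genes had more than 1. Of the 41 probes that were not used to represent a gene, 21 had the sign of the used probe, and for 13 genes the probes differed in sign. Tested on their own, 8 of the 79 probes (10.1%) were called in limma, 3 higher and 5 lower in KO, beside 16.8% of all 18429 probes. Besides those of Ube2c and Cdk4, these were 1 probe each of Rrm1, Rrm2, Mybl2, Mcm6, Cenpa and Cdk2. A probe of Rrm1 had signals of 911.9, 790.6 and 940.4 in KO and 694.2, 503.7 and 528.2 in WT, a change of 0.61 ± 0.14 (adjusted p = 0.0228), which the brightest probe of the gene (0.018) and a dim one (-0.014) did not show. A dim probe of Rrm2 had 63.3, 60.7 and 65.8 in KO and 40.6, 44.3 and 46.1 in WT (0.41 ± 0.090, adjusted p = 0.0192), in the direction of its 2 other probes. The dimmest probe of Mybl2 had 34.8, 39.7 and 43 in KO and 62.6, 78.7 and 56.8 in WT (-0.57 ± 0.12, adjusted p = 0.0189), and all 3 probes of this gene were at lower means in KO. In Cenpa a dim probe had 59.7, 55.2 and 54.9 in KO and 84.3, 75.3 and 79.7 in WT, a change of -0.40, opposite in sign to the bright probe. In Mcm6 the dimmest of 4 probes was called lower (-0.52, adjusted p = 0.0485), while the other 3 differed by -0.082 to 0.064. The dimmest had 56.6, 72.9 and 48.8 in KO and 83.1, 83.1 and 108.3 in WT. The brightest had 2128.9, 2105.2 and 2362.8 in KO and 2458.5, 2024.7 and 2373.6 in WT. All 4 probes of Cdk2 were at lower means in KO, by -0.091 for the brightest and by -0.15, -0.32 and -0.34 for the others, whose groups did not overlap. The dimmest of them was called, with 89.7, 88.4 and 85.1 in KO and 123.9, 106.7 and 115.5 in WT (adjusted p = 0.0418). Which transcripts the probes of a gene bind was not analysed here.

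**Figure D4:**
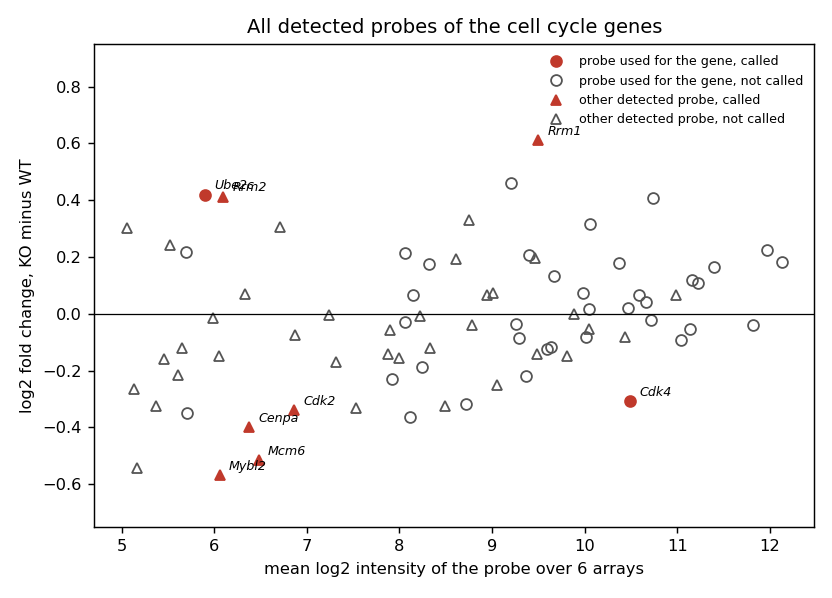
Log2 fold change, KO minus WT, against mean log2 intensity for the 79 detected probes of the cell cycle genes. Filled symbols mark the 8 probes called on their own, 5 of which lie below a log2 intensity of 7 and are not the probe used for the gene, and probes above 11 lie between -0.091 and 0.23.

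Further genes of the cycle were taken from 2 lists that share no gene with the 44. Of 43 tested genes of G1 and S phase, 1 was higher and 0 were lower in KO, with a median of 0.015. The share called was 2.33%, beside 16.7% of all genes. The gene called was E2f2, an activating E2F factor, with 11.47, 11.38 and 11.58 in KO and 11.25, 11.08 and 11.05 in WT (0.35 ± 0.099, limma adjusted p = 0.0495). Without any 1 array its change was 0.30 to 0.41 and did not pass (adjusted p 0.0633 to 0.143). Of 54 tested genes of G2 and mitosis, 1 was higher and 5 were lower, with a median of -0.0084. The 6 genes are 11.1% of the list, below the 16.7% of all genes called. Spc25, a subunit of the Ndc80 complex of the kinetochore, fell to 9.79, 9.81 and 9.79 in KO, against 10.62, 10.25 and 10.37 in WT (-0.62 ± 0.11, adjusted p = 0.00999), and its other probe changed by -0.67. Kif23, a kinesin of cytokinesis, fell to 10.70, 10.53 and 10.47 in KO, against 11.12, 11.04 and 10.99 in WT (-0.49 ± 0.096, adjusted p = 0.0143). Cep55, a protein of the midbody, fell by 0.51, and Ect2, which guides cytokinesis, fell by 0.46. Ccnf, cyclin F, rose by 0.43. The brightest probe of Ncapg2, a condensin subunit, was lower in KO (-0.71), but a probe of nearly equal brightness was higher (0.86), so this gene has no settled direction. Leaving out WT array 1 gave Kif23 a change of -0.45 (adjusted p = 0.0568), and leaving out any 1 array but WT array 3 gave Cep55 a change of -0.53 to -0.43 (adjusted p 0.0708 to 0.0909). Ccnf did not pass without KO array 1 (0.43, adjusted p = 0.0665), KO array 3 (0.42, adjusted p = 0.0535) or WT array 1 (0.37, adjusted p = 0.0580). With both KO arrays 1 and 2 left out, no gene of either list passed in limma, while the changes were -0.62 for Spc25, -0.59 for Kif23 and 0.46 for E2f2 on the single KO array.

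Of 13 tested inhibitors of the cycle, 1 was called (7.69%, beside 16.7% of all genes). At an unadjusted p under 0.05 there were 6 (46.2%, beside 33.6% of all genes). Cdkn1a, which encodes the kinase inhibitor p21, rose to 10.55, 10.46 and 10.49 in KO, against 8.38, 8.23 and 9.23 in WT (1.89 ± 0.24, limma adjusted p = 0.0025). All 3 of its detected probes were higher in KO, by 1.61 to 1.89 on the log2 scale. Without KO arrays 1 and 2 the change was 1.87, nearly the same size, and did not pass with a single KO array (adjusted p = 0.0842).

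Blood-forming cells can divide in the newborn liver, and 3 of their marker lists (erythroid, B lymphoid and myeloid) differed in level between the groups. Of 18 tested erythroid markers 5 were higher and 0 lower in KO (27.8% called), with a summed level of 76533 to 82746 in KO and 71788 to 72715 in WT. Their median deviation was 0.061 to 0.18 on KO arrays and -0.14 to -0.10 on WT arrays. Of 7 tested markers of B lymphoid precursors, 0 were higher and 4 lower (57.1% called), with a summed level of 2130 to 2370 in KO and 2594 to 3075 in WT. Of 13 tested neutrophil and myeloid precursor markers, 0 were higher and 2 lower (15.4% called, near the 16.7% of all genes), and their summed level was 63259 to 66043 in KO and 67382 to 72379 in WT. In each of these 3 lists the KO and WT ranges did not overlap. The median deviation of the 38 cell cycle genes was -0.0070 to 0.077 on KO arrays and -0.14 to 0.069 on WT arrays, with ranges that overlap. That of the stem cell and megakaryocyte markers also overlapped, at -0.0042 to 0.0095 on KO arrays and -0.15 to 0.15 on WT arrays. The brightest and the smallest-p gene of each list were Hba-a1 (0.012) and Add2 (0.59) for erythroid cells, Cd79b (-0.17) and Vpreb1 (-0.51) for B precursors, and S100a8 (0.015) and Ctsg (-0.36) for myeloid precursors, each value being a log2 fold change. Hba-a1 was at the highest value of the array, 28405.4, on 5 of 6 arrays, so that its difference measures nothing. The part of these cell types in the cell cycle values was not tested.

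Markers of stem cells and megakaryocytes (0 of 9 called; Pf4 -0.21, Meis1 -0.25) and of macrophages (0 of 9; C1qc -0.0089, Csf1r -0.32) gave no call in limma, with 2 and 3 genes at an unadjusted p under 0.05. Over all genes 16.7% were called and 33.6% had an unadjusted p under 0.05, the shares to set beside these lists and the marker lists that follow. Among endothelial markers 1 of 9 was called (Lyve1, 0.57), and the brightest, Clec4g, differed by 0.30. Among stellate and biliary markers 1 of 9 was called (Krt19, 1.46), and the brightest, Col1a1, differed by -0.036. Krt19 was highest on KO arrays 1 and 2, with signals of 60.2, 109.6 and 23.6 in KO and 3.6, 2.2 and 15.4 in WT. Among hepatocyte markers 1 of 11 was called (Cps1, 0.47), and the brightest, Ahsg, differed by 0.0083. The median deviation of the hepatocyte markers was -0.064 to -0.00080 on KO arrays and 0.018 to 0.033 on WT arrays, ranges that do not overlap either. Endothelial markers summed to 10442 to 11286 in KO and 8775 to 9543 in WT, ranges that do not overlap. Of 6 tested lung markers 1 was called (Sftpc), and the brightest, Abca3, differed by 0.17. Sftpc was detected on 3 arrays only, with signals of 1.6 to 10.7 in WT. It thus passed the filter through the KO arrays, and its call is no separate evidence of a difference. The summed level of the 6 lung markers was 9762, 23306 and 2248 on KO arrays 1, 2 and 3, against 2285, 1906 and 2883 on WT arrays 1, 2 and 3. The median deviation of the 38 cell cycle genes was -0.0070 and 0.035 on KO arrays 1 and 2 and 0.077 on KO array 3. Of 4 tested genes of the sex chromosomes 1, Kdm5d, was lower in KO (-0.71 ± 0.15), the brightest, Eif2s3y, differed by -0.32, and the sex of the pups is not in the labels used here. Xist, which is expressed from the inactive X chromosome of females, had signals of 1984, 1823 and 17.9 on KO arrays 1, 2 and 3, against 1018, 4.1 and 5.4 on WT arrays 1, 2 and 3. Xist was thus high on KO arrays 1 and 2, which are also the arrays with the highest lung transcripts, and on WT array 1. Its part in the cell cycle values was tested only as the covariate below. With Xist as a covariate, 0 of the 38 genes were called in limma, where 10.8% of all genes were called. In that fit 5 of the 38 had an unadjusted p under 0.05.

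**Figure D5:**
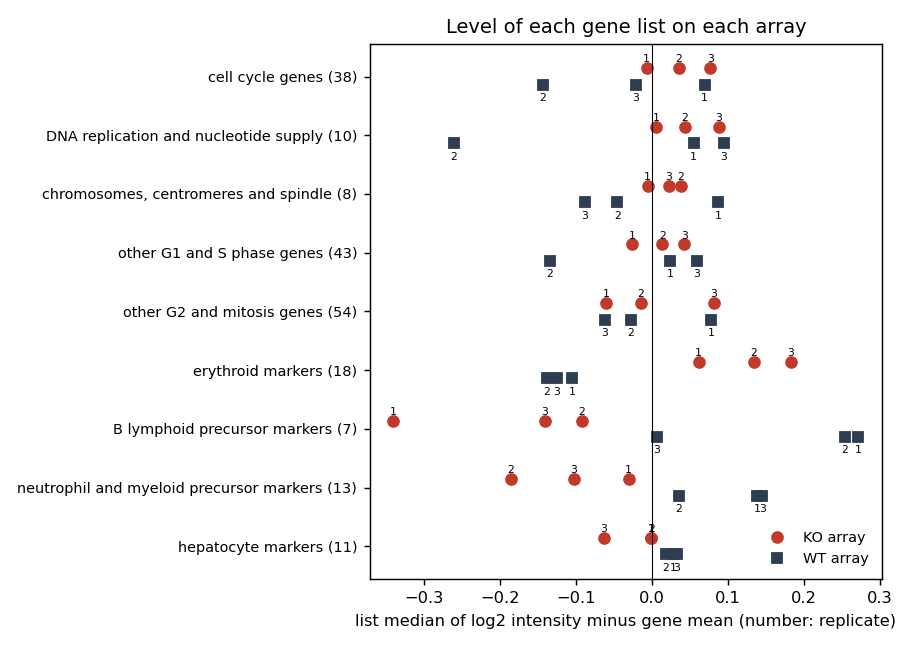
Median over each gene list of the log2 intensity minus the gene's mean over 6 arrays, per array (red circles: KO, above; dark squares: WT, below; the small digit is the replicate and the number in brackets is genes tested). The cell cycle lists shown overlap between groups, with WT array 2 at -0.26 for DNA replication. The groups do not overlap for the G1 genes and the genes of mitotic exit, which are not drawn here, nor for the marker lists drawn. Erythroid markers lie at 0.061 to 0.18 in KO and at -0.14 to -0.10 in WT.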

How the data were processed

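Liver RNA of 3 Igf2 KO and 3 WT newborn samples was measured on Illumina BeadChips, per the labels' protocols. The authors deposited the same probe intensity values in 2 tables on a linear scale, 1 of them with a detection p-value per probe and array, per the file headers. Although the title of 1 table calls it non-normalized, 25.0% to 25.1% of its values are below 0 and the sorted values of the arrays differ by at most 0.2, so background subtraction and normalization between arrays came earlier. The software is not given in the sources used here. Slides and scan dates are likewise missing from them, so batches could not be examined. Between 46.3% and 49.9% of 45281 probes were detected on an array (detection p under 0.05). The number of arrays limits the precision.

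Probe IDs differ between the tables in 9535 rows. Rows were matched by their 6 intensities and named through the platform annotation, with symbols updated by Entrez ID in a RefSeq table. Of the 38 probes used, 10 had another ID naming the same gene and 1 (Mcm3) an ID with no name. Of all probes, 34885 had 1 symbol, 18 several and 10378 none. No deposited column of sample values was left unused for want of a sample.

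Values were processed with neqc of limma (version 3.58.1, R 4.3.3; offset 16, quantile normalization, log2), although already normalized. The offset makes changes of dim genes smaller. Probes detected on at least 3 arrays were kept, and the brightest stood for its gene. KO and WT were compared with lmFit and eBayes (two-sided, Benjamini-Hochberg over 11346 genes), or over all 18429 probes where single probes are tested. Intervals are 95% intervals from moderated standard errors. Summed levels add linear neqc values over a list. The fit was tested on simulated data.

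The members and lists were chosen with earlier results of these data known. Values on every array are given for called members, for the brightest and the smallest-p member of each role, and for members whose probes disagree in direction with 1 called. From the further cell cycle lists, up to 4 called genes a direction are named by smallest p, and from each marker list the brightest and the smallest-p gene. Ect2 was named, array values of Ccnd1, Cdk6, Plk1, Cdc20 and Top2a shown and the promoters chosen after their values were seen. Alternatives changed the background step, filter, probe rule, variance model, covariates and samples.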

Additional observations from a re-analysis of the deposited data

How the results depend on the processing

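Of the 38 tested genes, 31 were called neither in the reported analysis nor in any of 20 alternatives, and 19 uncalled genes differed in sign in at least 1 of them. Ube2c was called in 11 of 20 alternatives (adjusted p 0.00767 to 0.242) and Cdk4 in 8 of 20 (0.0158 to 0.972), both always with the reported sign. Ccne2, Cdc20, Kif11, Mybl2 and Rrm2 were called in 1 to 3 alternatives. The median of the 38 genes stayed within the spread between replicates, from -0.015 to 0.092. The count higher in KO was 2 with an offset of 50 and with array weights and 3 with a trended robust variance, and 0 with the replicate block, without KO arrays 1 and 2, with the level of lung markers as a covariate and with that of Xist as a covariate. The count lower in KO was 3 with array weights and 0 with the block, without KO arrays 1 and 2, with either covariate and with probes of equal ID, an alternative chosen after seeing the data. Leaving out 1 array gave 0 to 1 higher and 0 to 1 lower. Replicate numbers did not pair the arrays, as the deviations of equal numbers correlated at -0.0044, 0.028 and 0.015. Over all genes, 1897 were called, against 3025 with array weights, 200 without KO arrays 1 and 2, 581 with the lung covariate, 1222 with the Xist covariate, 1323 with the block and 846 (without KO array 1) to 1893 (without WT array 3) with 1 array left out. For the other G1 and S phase genes, 1 was higher as reported, 2 with offset 50, trended variance or array weights, and 0 with the deposited values, probe means, every probe tested, the block, KO arrays 1 and 2 left out, either covariate or equal IDs. There, 1 was lower with offset 50, no filter, probe means or trended variance, and 3 with array weights, and leaving out 1 array gave 0 to 1 in each direction. For the other G2 and mitosis genes, 2 were higher with array weights or equal IDs, 0 without KO arrays 1 and 2 and 0 to 3 with 1 array left out. Of these, 3 were lower with probe means, 8 with array weights, 0 without KO arrays 1 and 2, 0 with the lung covariate and 1 to 4 with 1 array left out. Ncapg2 turned to 0.17 with probe means and 0.35 with equal IDs, and ran from -0.80 to 0.95 with 1 array left out, since another of its probes is then the brightest or is averaged in. The cause of the other differences was not tested. Dim probes limit what can be seen: 4 genes of the list were not above background on any array.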
